A study of Mus musculus with 8 samples.

Results

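The elastic fibre and microfibril genes described here are Eln, Fbn1, Fbln1, Fbln2, Fbln5, Mfap4, Mfap5, Ltbp2, Emilin1 and Efemp2, chosen by name, which are 10 of the 13439 genes with values. The study has 8 RNA libraries of mouse left ventricles, in 4 groups of 2 that cross genotype with surgery. Floxed hearts (Lin28afl/fl) are those of control littermates with Lin28a intact, and cKO hearts (Lin28aCko) come from mice in which the gene was knocked out in the heart. Each genotype was studied after sham surgery and after TAC (transverse aortic constriction), which narrows the aorta and makes the left ventricle pump against a higher pressure. TAC hearts were taken on day 5 and no day is given for sham hearts. The title of the series states that loss of Lin28a attenuates the hypertrophy brought on by pressure overload. The sources used here do not give the strain, the age, the promoter that drives Cre or whether the libraries of a group came from separate animals. The p-values therefore measure the spread between these libraries, which may be technical. Lin28a itself was not analysed here, and the genotype of each library is as labelled.

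Elastic fibres give arteries, valves and the walls of the heart their recoil. A core of cross-linked elastin is laid down on a scaffold of microfibrils, which are strings of fibrillin with attached glycoproteins. Fibulins and emilins sit between core and scaffold and help tropoelastin, the soluble elastin monomer, to coat the microfibril before lysyl oxidases cross-link it. Microfibrils also hold latent TGF-beta, a growth factor that drives scar formation, through its binding proteins. In the heart these proteins are made mainly by fibroblasts, vascular smooth muscle and valve cells, and much less by cardiomyocytes. In bulk RNA, fewer cells of a type and less RNA per cell cannot be told apart, and this holds for each value below.

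The sequences around the start of transcription are shown for the gene with the largest TAC response, Ltbp2, and for the only one that was lower after TAC, Fbln1. RefSeq promoters (GRCm38.p6, the mm10 build) could be matched to 7 of the 10 genes, and not to Eln, Mfap4 and Mfap5. Each stretch is the part of the 250 bases before a RefSeq start that lies outside the annotated gene. The Ltbp2 stretch is chr12:84876559-84876741 on the minus strand, with a GC box (GGGCGG, the core bound by Sp1-type factors, here on the opposite strand) in capitals. The Fbln1 stretch is chr15:85205699-85205948 on the plus strand, with a SMAD element (CAGACA, here on the opposite strand) in capitals.
Ltbp2: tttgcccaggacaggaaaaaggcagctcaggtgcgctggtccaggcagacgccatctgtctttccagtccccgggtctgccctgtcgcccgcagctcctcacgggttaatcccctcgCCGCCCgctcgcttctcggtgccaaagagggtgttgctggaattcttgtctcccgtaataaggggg
Fbln1: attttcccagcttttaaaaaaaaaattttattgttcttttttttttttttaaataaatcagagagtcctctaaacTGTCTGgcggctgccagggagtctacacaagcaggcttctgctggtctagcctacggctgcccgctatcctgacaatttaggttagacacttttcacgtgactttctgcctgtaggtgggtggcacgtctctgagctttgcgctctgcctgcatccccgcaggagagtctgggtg
Both strands of the 250 bases before each start were searched for a TATA box (TATAAA), the SMAD palindrome (GTCTAGAC), the SMAD element, the TEAD motif (GGAATG), the AP-1 motif (TGANTCA), the GC box and the CArG box. A CArG box can contain the TATA box, and none of the other motifs as spelled here contains another. The 7 genes have 11 RefSeq starts, 3 for Efemp2 and 2 each for Fbln1 and Fbln5, so these genes had more than 1 window. The 2 windows of Fbln1 overlap and hold the same SMAD element. Of the 3 windows of Efemp2, 2 overlap and hold the same GC boxes. The counts of starts below therefore include the same sequence more than 1 time. A GC box was found before 8 of the 11 starts (in Efemp2, Fbln1, Fbln2, Fbln5, Fbn1 and Ltbp2, 6 of the 7 genes), against 32.7% of 32851 RefSeq starts. The SMAD element, a sequence bound by the factors that carry the TGF-beta signal, was found before 4 of the 11 starts (in Emilin1, Fbln1 and Fbln5), against 17.1% of all starts. The letters of the other motifs were not in these windows. Of all starts, 12.4% hold the TATA box, 12.6% the TEAD motif, 6.75% the AP-1 motif, 1.47% the CArG box and 0.167% the palindrome.

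Lin28a is known for blocking the maturation of let-7 microRNAs, so the let-7 seed is shown beside the only match to it among these genes. The seed (bases 2 to 8) is in capitals in the microRNA, and its match is in capitals in the target.
mmu-let-7a-5p: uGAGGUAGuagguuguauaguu
Fbln5 site: gaccaggctcctatcCTACCTCt
The site lies at chr12:101749188-101749210 on the minus strand (GRCm38), inside the longest annotated 3′ UTR of Fbln5, which is 4177 bases long. CTACCTC occurs in the longest 3′ UTR of 1 of the 10 genes and of 10.7% of 12028 tested genes. The median 3′ UTR of the tested genes is 1227 bases long, so that of Fbln5 offered more positions for a match than most.

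Library totals were between 10315902 reads (cKO sham replicate 1) and 21871570 reads (floxed TAC replicate 1). Values are CPM, the reads of a gene over all assigned reads of its library, times a constant, and 3 reads correspond to 0.137 to 0.291 CPM, a limit that covers counting error only. The 10 genes exceeded 1 CPM in each library and passed the filter on low values. Their lowest count was 28 reads, for Ltbp2 in cKO sham replicate 1. Floxed sham replicate 2, cKO sham replicate 2 and cKO TAC replicate 2 stood apart by transcripts of the atria: Myl7, the atrial myosin light chain, was at 133, 65.0 and 66.2 CPM in them and at 6.16 CPM or less in the other libraries. Counts of genes that passed are therefore also given without these 3 libraries, which leaves 1 library in each of 3 groups. In that fit only the 2 floxed TAC libraries show the spread of a gene, besides the variance trend over all genes. Each call made or lost without these 3 libraries rests on that pair and is a weak check. A gene is said to have risen or fallen where limma's adjusted p was under 0.05 on log2(CPM + 1), a scale that understates changes of low genes.

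After TAC, transcripts of elastin and of the proteins that place it on microfibrils were higher in floxed hearts, by 2.23-fold to 6.57-fold in mean CPM, and less so in cKO hearts. Eln, on chromosome 5 (GRCm38, 134702593 to 134747323, minus strand), encodes tropoelastin. It was at 28.3 and 27.9 CPM in floxed sham, 174 and 138 in floxed TAC, 66.6 and 28.9 in cKO sham, and 96.8 and 116 in cKO TAC libraries. The cKO sham libraries differed from each other by 2.31-fold, the widest gap within a sham group among the 10 genes, and replicate 1 was the higher. In floxed hearts Eln rose by 2.42 ± 0.30 on the log2 scale (limma, mean 28.1 ± 0.268 to 156 ± 25.4 CPM, SD, n = 2; adjusted p = 0.000238), a 5.54-fold change in means. In cKO hearts the difference was 1.25 ± 0.30 (limma adjusted p = 0.0683). Leaving out cKO sham replicate 1 made it 1.84, so its size depended on that library. With DESeq2 on all 8 libraries the difference passed (DESeq2 adjusted p = 0.00172), so the call also depended on the method.

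Fbln5, on chromosome 12 (101746565 to 101819055, minus strand), encodes fibulin-5, which binds tropoelastin and is needed for elastic fibres to form. It was at 34.4 and 34.8 CPM in floxed sham, 76.0 and 78.1 in floxed TAC, 43.2 and 40.7 in cKO sham, and 38.0 and 52.5 in cKO TAC libraries. Its TAC and sham values overlapped in cKO hearts and lay apart in floxed hearts. In floxed hearts it rose 2.23-fold in means (1.13 ± 0.15, limma adjusted p = 0.000339). In cKO hearts its difference was 0.09 ± 0.15 (limma adjusted p = 0.835), and its sign turned negative without cKO TAC replicate 2 (-0.14).

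Efemp2, on chromosome 19 (5473954 to 5482517, plus strand), encodes fibulin-4, which brings lysyl oxidase to elastin. Its values were 10.3 and 12.4 CPM in floxed sham, 66.8 and 81.7 in floxed TAC, 14.5 and 14.4 in cKO sham, and 22.2 and 27.7 in cKO TAC libraries. Each TAC library was above each sham library in both genotypes, and the floxed TAC libraries stood well above the cKO TAC libraries. In floxed hearts the gene rose 6.57-fold in means (2.61 ± 0.17, limma adjusted p = 1.5e-05). The difference in cKO hearts, 0.74 ± 0.17, did not pass (limma adjusted p = 0.0561), though it did with edgeR (0.0463) and DESeq2 (0.00993).

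Emilin1, on chromosome 5 (30913402 to 30921277, plus strand), encodes a glycoprotein at the border of elastin and microfibrils that is known to restrain TGF-beta activation. It was at 36.4 and 39.5 CPM in floxed sham, 200.1 and 284 in floxed TAC, 38.6 and 48.9 in cKO sham, and 58.2 and 107 in cKO TAC libraries. The floxed TAC libraries were the highest, and cKO TAC replicate 2 was 1.84-fold above replicate 1. It rose 6.38-fold in means in floxed hearts (2.62 ± 0.26, limma adjusted p = 7.72e-05). In cKO hearts the difference was 0.85 ± 0.26 (limma adjusted p = 0.142). Without cKO TAC replicate 1 it was 1.28, which passed (limma adjusted p = 0.0124).

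**Figure D1:**
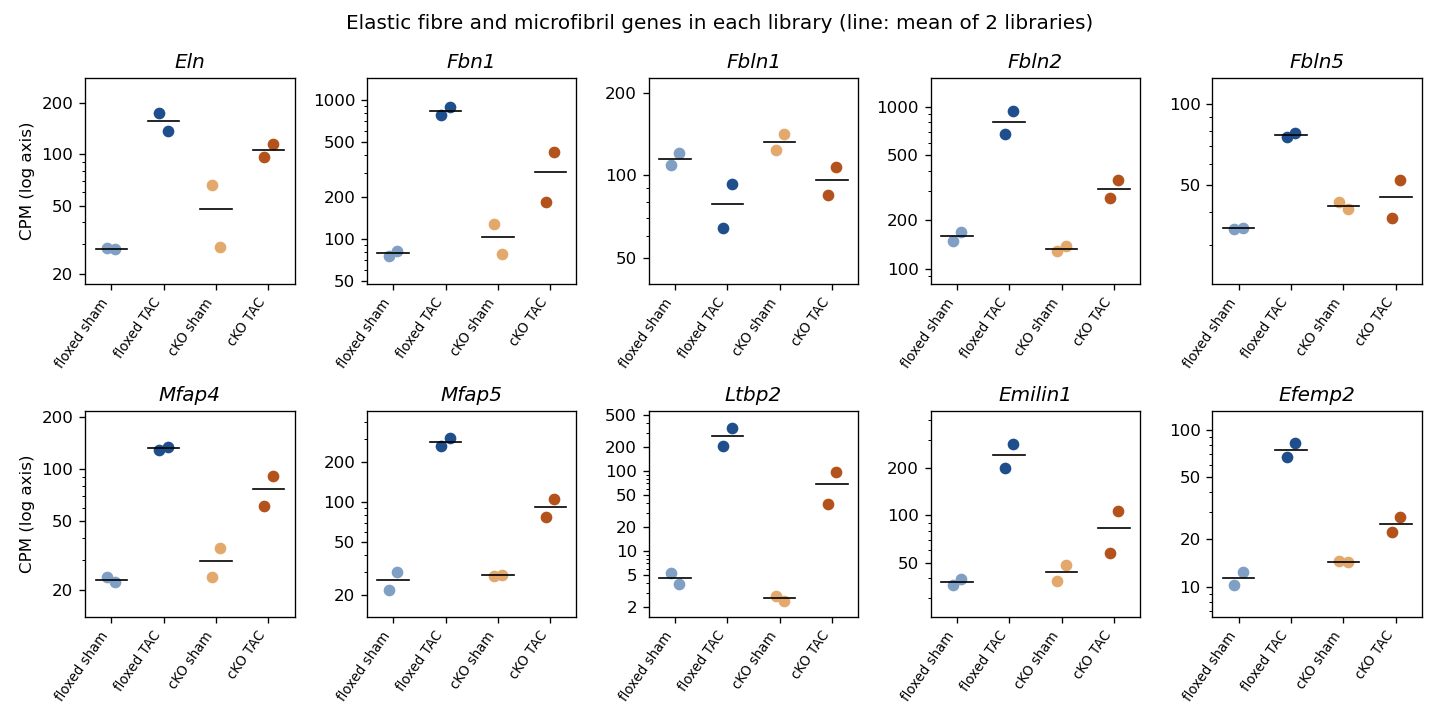
CPM of the 10 genes (log axis, a separate range in each panel) in the 4 groups, with replicate 1 on the left of each pair and a line at the mean of 2 libraries. The floxed TAC points are the highest in each panel except that of Fbln1, where they are the lowest on average, and cKO TAC points lie between sham and floxed TAC points for 8 genes.

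The microfibril genes Ltbp2, Fbn1, Mfap5 and Mfap4 all rose in floxed hearts, and Ltbp2 had the largest change of the 10 genes. Ltbp2, on chromosome 12 (84783212 to 84876532, minus strand), encodes a member of the latent TGF-beta binding protein family that sits on fibrillin microfibrils and, unlike its relatives, does not bind latent TGF-beta. It was at 5.32 and 3.90 CPM in floxed sham, 206 and 345 in floxed TAC, 2.71 and 2.39 in cKO sham, and 38.7 and 97.9 in cKO TAC libraries. The least abundant of the 10 genes per kilobase of transcript in sham hearts, it rose 59.7-fold in means in floxed hearts (5.59 ± 0.38, limma adjusted p = 1.71e-05). It rose 26.8-fold in cKO hearts (4.14 ± 0.38, limma adjusted p = 0.00149). These are large ratios over a low base, 82 and 65 reads in the floxed sham and 28 and 36 reads in the cKO sham libraries. The cKO TAC libraries differed by 2.53-fold.

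Fbn1, on chromosome 2 (125300594 to 125507993, minus strand), encodes fibrillin-1, the backbone of the microfibril and the protein altered in Marfan syndrome. Its values were 75.6 and 82.1 CPM in floxed sham, 777 and 893 in floxed TAC, 129 and 77.9 in cKO sham, and 184 and 423 in cKO TAC libraries. The cKO groups were uneven, with ratios of 1.65 between the sham and 2.29 between the TAC libraries, against 1.09 and 1.15 in floxed groups. In floxed hearts Fbn1 rose 10.6-fold in means (3.39 ± 0.34, limma adjusted p = 7.41e-05). In cKO hearts the difference was 1.47 ± 0.34 (limma adjusted p = 0.0542). Without cKO TAC replicate 1 that difference was 2.07, which passed (limma adjusted p = 0.00349).

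Mfap5, on chromosome 6 (122505845 to 122529290, plus strand), encodes microfibril-associated glycoprotein 2, which decorates fibrillin. It was at 21.8 and 29.8 CPM in floxed sham, 266 and 303 in floxed TAC, 28.0 and 28.5 in cKO sham, and 77.6 and 105 in cKO TAC libraries. The sham groups overlapped, the TAC groups did not, and neither TAC group overlapped its sham group. The gene rose 11.0-fold in means in floxed hearts (3.42 ± 0.18, limma adjusted p = 5.56e-06) and 3.24-fold in cKO hearts (1.64 ± 0.18, limma adjusted p = 0.0031).

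Mfap4, on chromosome 11 (61485431 to 61488900, plus strand), encodes a fibrinogen-related glycoprotein that binds elastin, collagen and microfibrils. It was at 23.7 and 22.3 CPM in floxed sham, 130.0 and 135 in floxed TAC, 23.9 and 35.2 in cKO sham, and 61.3 and 91.7 in cKO TAC libraries. The floxed TAC libraries were nearly equal, whereas replicate 2 was about as far above replicate 1 in cKO TAC (1.50-fold) as in cKO sham (1.47-fold). It rose 5.76-fold in means in floxed hearts (2.48 ± 0.21, limma adjusted p = 3.52e-05) and 2.59-fold in cKO hearts (1.34 ± 0.21, limma adjusted p = 0.0128). The call in cKO hearts was lost without cKO sham replicate 1 (1.07). It was also lost with only the 4 libraries of the comparison (limma adjusted p = 0.0938).

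The other fibulins, Fbln1 and Fbln2, moved in opposite directions in floxed hearts. Fbln2, on chromosome 6 (91212455 to 91272540, plus strand), encodes fibulin-2, a partner of fibrillin-1 in microfibrils that marks developing valves and remodelling vessels. It was at 149 and 169 CPM in floxed sham, 679 and 934 in floxed TAC, 129 and 137 in cKO sham, and 272 and 352 in cKO TAC libraries. Its TAC libraries were above its sham libraries in both genotypes, and the floxed TAC libraries were above the cKO TAC libraries. It rose 5.07-fold in means in floxed hearts (2.32 ± 0.17, limma adjusted p = 2.01e-05) and 2.35-fold in cKO hearts (1.22 ± 0.17, limma adjusted p = 0.00828). In cKO hearts the call was lost without cKO sham replicate 2 (1.26) and without the 3 libraries with atrial transcripts (1.08).

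Fbln1, on chromosome 15 (85205949 to 85286535, plus strand), encodes fibulin-1, which is found within elastic fibres and basement membranes. It was at 109 and 120 CPM in floxed sham, 64.1 and 92.7 in floxed TAC, 124 and 141 in cKO sham, and 84.8 and 107 in cKO TAC libraries. In each genotype both TAC libraries were below both sham libraries. In floxed hearts Fbln1 fell by 0.56 ± 0.18 on the log2 scale (limma adjusted p = 0.0299), from a mean of 115 ± 8.15 to 78.4 ± 20.2 CPM (SD, n = 2). This call was lost without floxed sham replicate 1 (limma adjusted p = 0.0799), floxed sham replicate 2 (0.154) or floxed TAC replicate 1, where the difference was -0.30 (0.226). In cKO hearts the difference was -0.47 ± 0.18 (limma adjusted p = 0.229).

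Within a library, depth and scaling cancel in a ratio of these fibulins. Fbln2 over Fbln1 was 1.37 and 1.40 in floxed sham, 10.6 and 10.1 in floxed TAC, 1.04 and 0.969 in cKO sham, and 3.21 and 3.29 in cKO TAC libraries. The pairs of replicates lay close together on this ratio, also in the cKO TAC group. Each of the 10 genes was higher in replicate 2 there, as were 9 in floxed TAC, 7 in floxed sham and 5 in cKO sham libraries. The share over all genes was not counted. Another such ratio, Fbn1 over Fbln1, differed more between replicates of the cKO groups. It was 1.04 and 0.551 in cKO sham and 2.17 and 3.95 in cKO TAC libraries. In floxed hearts it was 0.695 and 0.682 in sham and 12.1 and 9.63 in TAC libraries. The summed CPM of the 10 genes was 494 and 542 in floxed sham, 2638 and 3284 in floxed TAC, 599 and 556 in cKO sham, and 934 and 1480 in cKO TAC libraries. On the sum, the cKO TAC libraries lay between the sham libraries and the floxed TAC libraries.

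Across the set, 9 of the 10 genes rose and 1 fell after TAC in floxed hearts, where 27.9% of the 13120 genes tested rose and 14.5% fell, 42.4% in all. The median log2 difference was 2.54 over the 10 genes and 0.14 over all genes tested. TAC and sham libraries did not overlap for any of the 10, with 9 above and 1 below. Over all tested genes 46.7% lay above and 28.9% below in that way. Leaving out the 3 libraries with atrial transcripts, 9 of the 10 passed, since Fbln1 did not (limma adjusted p = 0.138).

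In cKO hearts 4 of the 10 genes rose after TAC (Ltbp2, Mfap5, Mfap4 and Fbln2) and none fell, where 2.09% of all tested genes rose and 0.442% fell, 2.53% in all. The median difference was 1.23, against 0.02 over all genes. Libraries did not overlap for 9 genes, 8 above and 1 below, where 23.0% of all genes lay above and 19.9% below. The number that passed was 8 with DESeq2, 6 with edgeR, 7 without cKO TAC replicate 1, and 3 without the libraries with atrial transcripts. Beyond the 4 genes, those called by DESeq2 were Eln, Fbn1, Emilin1 and Efemp2.

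**Figure D2:**
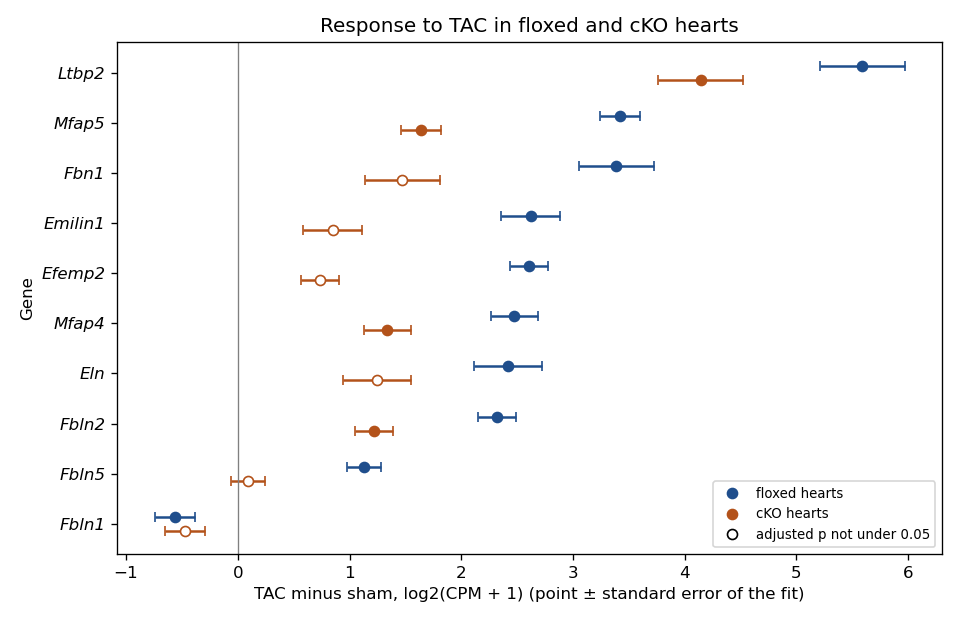
Difference between TAC and sham libraries on the log2(CPM + 1) scale for each of the 10 genes, in floxed hearts (blue) and cKO hearts (orange), with the standard error of the limma fit; filled points passed an adjusted p of 0.05. Each floxed point lies to the right of its cKO point except for Fbln1, whose points are at -0.56 and -0.47.

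In sham hearts none of the 10 genes differed between genotypes by limma's adjusted p, where 0.0534% of all tested genes did (7 genes, 0.0457% with cKO higher and 0.00762% with cKO lower). The lowest adjusted p was 0.67, for Eln, and 0 of the 10 had an unadjusted p under 0.05. edgeR and DESeq2 also called 0 of them. Differences of cKO minus floxed ran from -0.65 for Ltbp2 (2.71 and 2.39 against 5.32 and 3.90 CPM) to 0.63 for Eln, with a median of 0.24 against 0.02 over all genes. Libraries did not overlap for 5 genes with cKO above and 2 with cKO below, where 24.9% and 17.1% of all genes did so. The standard errors of 0.15 to 0.38 leave room for differences of that size.

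In TAC hearts 8 of the 10 genes were lower in cKO than in floxed libraries, where 16.5% of all tested genes were lower and 8.39% higher, 24.9% in all. The median difference was -1.45, against -0.10 over all genes. Ltbp2 had the largest difference (-2.09 ± 0.38, limma adjusted p = 0.0051), with a mean of 68.3 ± 41.9 in cKO against 275 ± 98.6 CPM in floxed hearts (SD, n = 2). It was -1.44 without cKO TAC replicate 1 and -2.75 without replicate 2, and passed in both fits. Mfap5 differed by -1.64 ± 0.18 (limma adjusted p = 0.000955), with means of 91.5 ± 19.6 and 284 ± 26.4 CPM. Efemp2 was next in the strength of its test (-1.54 ± 0.17, limma adjusted p = 0.000968), at 25.0 ± 3.88 against 74.2 ± 10.6 CPM.

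The other 5 genes that were lower differed by -0.77 (Fbln5) to -1.58 (Emilin1). Fbn1 differed by -1.57 ± 0.34 (limma adjusted p = 0.00964), by -0.98 without cKO TAC replicate 1, and did not pass without floxed TAC replicate 2 (0.0683). Fbln2 differed by -1.36 ± 0.17 (limma adjusted p = 0.00126). Mfap4 differed by -0.81 ± 0.21 (limma adjusted p = 0.0209) and did not pass without floxed TAC replicate 1 (0.0865), floxed TAC replicate 2 (0.109) or cKO TAC replicate 1 (-0.53, 0.136). Eln and Fbln1 did not pass. Eln differed by -0.54 ± 0.30 (limma adjusted p = 0.224), although both cKO TAC libraries were below both floxed TAC libraries. Without either cKO sham library, which are not compared here but share the estimate of spread, Eln passed (0.0276 without replicate 1 and 0.0268 without replicate 2). Fbln1 differed by 0.30 ± 0.18 (limma adjusted p = 0.256) and was the only one of the 10 whose libraries overlapped, while the other 9 lay below. Over all tested genes 40.2% lay below and 23.6% above in that way. Leaving out the 3 libraries with atrial transcripts, 9 of the 10 genes passed.

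The difference between the TAC responses was tested as the genotype by surgery interaction, which subtracts the floxed response from the cKO response. It shares its libraries with the comparisons above and is no further evidence beside them. It was negative and passed for 7 of the 10 genes, where 9.18% of all tested genes passed with a negative and 4.93% with a positive value, 14.1% in all. The median was -1.31, against -0.13 over all genes. The values that passed were -1.92 ± 0.47 for Fbn1 (limma adjusted p = 0.0287), -1.87 ± 0.24 for Efemp2 (0.00454), -1.78 ± 0.25 for Mfap5 (0.00555), -1.77 ± 0.37 for Emilin1 (0.0171), -1.14 ± 0.30 for Mfap4 (0.0342), -1.10 ± 0.24 for Fbln2 (0.0185) and -1.05 ± 0.22 for Fbln5 (0.0164). Eln (-1.17 ± 0.43, limma adjusted p = 0.0961), Ltbp2 (-1.44 ± 0.54, 0.0997) and Fbln1 (0.09 ± 0.25, 0.837) did not pass. Ltbp2 thus had the largest responses of the 10 in both genotypes and a difference between them that missed the threshold.

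**Figure D3:**
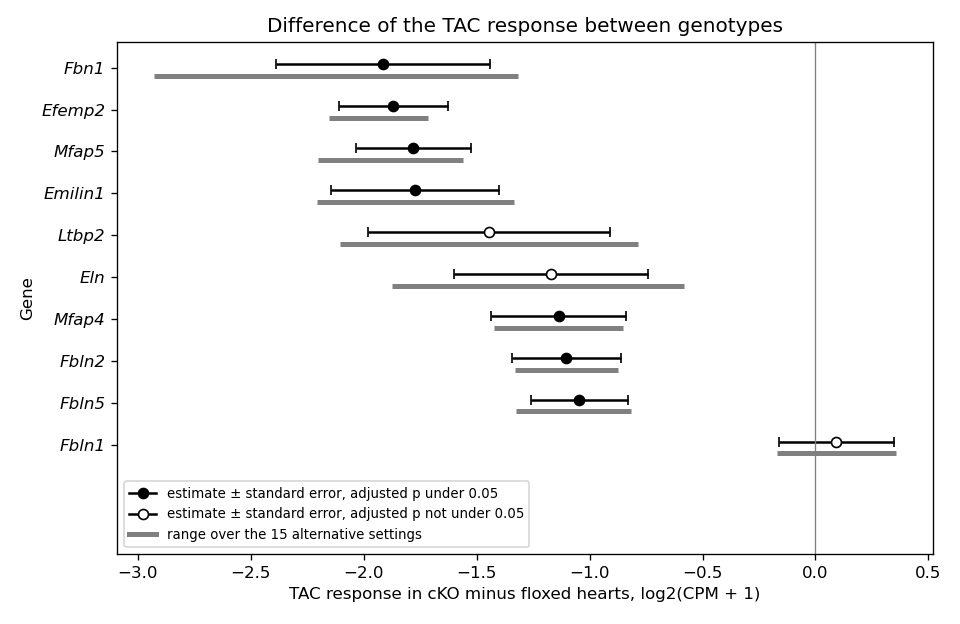
Response to TAC of cKO hearts less that of floxed hearts on the log2(CPM + 1) scale, with the standard error of the limma fit (filled points passed an adjusted p of 0.05) and, as a grey bar under each point, the range over the 15 alternative settings. Mfap5 and Efemp2 have grey bars between -2.20 and -1.56, and the bar of Fbln1 crosses 0.

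In the interaction DESeq2 also called 7 of the 10 genes, without Fbn1 (DESeq2 adjusted p = 0.0527) and with Eln (0.0164). Efemp2 and Mfap5 passed the interaction test under each of the 15 alternative settings. The other 5 did not: 2 of the 10 genes passed without floxed sham replicate 1, without floxed sham replicate 2 or without floxed TAC replicate 2, and 4 passed without floxed TAC replicate 1. By contrast, 8 passed without cKO TAC replicate 2 and 9 without the libraries with atrial transcripts. Ltbp2 passed in both of those fits (limma adjusted p = 0.00641 and 0.0346).

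The order of the levels was compared per kilobase of the longest protein-coding transcript, since CPM favours long transcripts. In floxed sham hearts Fbln2 (33.3 ± 2.93 CPM per kb, SD, n = 2) and Fbln1 (31.3 ± 2.23) were highest, and their ranges overlapped. They were followed by Mfap5 (17.1), Mfap4 (13.4), Emilin1 (9.85), Eln (7.29), Fbn1 (6.59), Fbln5 (5.94), Efemp2 (4.29) and Ltbp2 (0.681), with no overlap between neighbours. Fibulin-1 and fibulin-2 transcripts thus led the set in sham hearts, while those of fibulin-5 and fibulin-4 were near its end. After TAC in floxed hearts the order was Mfap5 (189 ± 17.5 CPM per kb), Fbln2 (169 ± 37.7), Mfap4 (77.0), Fbn1 (69.8), Emilin1 (62.8), Ltbp2 (40.7), Eln (40.4), Efemp2 (28.2), Fbln1 (21.4) and Fbln5 (13.2). Fbln1 went from the second to the ninth place, Mfap5 from the third to the first and Ltbp2 from the last to the sixth. The ranges of Mfap5 and Fbln2 overlapped, as did those of Fbn1 and Emilin1 and those of Ltbp2 and Eln.

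In cKO sham hearts Fbln1 (36.3 CPM per kb) and Fbln2 (27.8) led, with no overlap. Mfap5 (18.8), Mfap4 (17.2), Eln (12.4), Emilin1 (11.4), Fbn1 (8.63), Fbln5 (7.20) and Efemp2 (5.49) followed, and Ltbp2 (0.377) was again last. From Mfap5 to Fbln5 the range of each gene overlapped that of the next, so their order is not settled. In cKO TAC hearts the order opened with Fbln2 (65.3), Mfap5 (60.8) and Mfap4 (44.4), each overlapping the next, and closed with Emilin1 (21.5), Ltbp2 (10.1), Efemp2 (9.48) and Fbln5 (7.76). The middle of it was tight: Eln (27.5), Fbln1 (26.2) and Fbn1 (25.4) differed by less than the spread of Fbn1 between its libraries (14.1 SD). With the merged exons of each gene as the length, Fbln1 led in floxed sham hearts and Fbln2 in floxed TAC hearts, so the top place depends on the length used.

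The other genes of the pathway, 51 in 6 lists, were examined the same way; 48 had values and 47 were tested. In floxed hearts 25 rose and 6 fell after TAC, where 27.9% of all tested genes rose and 14.5% fell. In cKO hearts 6 rose and none fell, against 2.09% and 0.442% of all. No gene of these lists passed between genotypes in sham hearts. In TAC hearts 23 were lower and 3 higher in cKO libraries, against 16.5% and 8.39% of all. The interaction passed as negative for 21 and as positive for 1, against 9.18% and 4.93% of all. The same shares of all tested genes apply to the counts of each list and of the cell markers below.

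Lysyl oxidases, which cross-link the elastin that fibulin-4 and fibulin-5 position, had the highest median of the 6 lists. All 5 family members rose in floxed hearts, with a median of 3.60 on the log2 scale, 2 rose in cKO hearts (median 1.14), and all 5 had a negative interaction. Lox, the founding enzyme, was at 3.18 and 2.28 CPM in floxed sham, 284 and 229 in floxed TAC, 4.17 and 2.26 in cKO sham, and 19.5 and 58.2 in cKO TAC libraries. It rose by 6.11 in floxed and 3.09 in cKO hearts (limma adjusted p = 1.75e-05 and 0.00765). The calls in cKO hearts were those of Lox and Loxl2, and neither passed without cKO sham replicate 2 (limma adjusted p = 0.058 and 0.0508). Loxl2 (1.38 in cKO hearts) also did not pass without cKO sham replicate 1 (0.0511) or without the libraries with atrial transcripts (0.0667). The difference of Lox was 1.99 without the libraries with atrial transcripts. Its interaction was -3.03 ± 0.59 (limma adjusted p = 0.0137), which did not pass without either floxed sham library or without floxed TAC replicate 1 (0.0546 to 0.0566). Loxl2 and Loxl3 rose by 3.60 and 3.88 in floxed hearts and kept a called negative interaction (-2.22 and -2.74) under each alternative.

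The genes listed as further microfibril and elastic fibre proteins did not move as a group: 3 of 12 rose and 3 fell in floxed hearts. Their median was -0.17. The list followed gene families by name, as with Mfap3l, and whether each product lies in elastic fibres was not examined. Fbn2, the fibrillin of the embryo, was at 0.130 and 0.420 CPM in floxed sham and 9.69 and 8.27 in floxed TAC libraries, and at 1.21 and 1.79 in cKO TAC libraries. It rose by 2.97 in floxed hearts (limma adjusted p = 3.26e-05). Mfap2, which encodes the glycoprotein related to the product of Mfap5, rose by 2.35 in floxed and 1.08 in cKO hearts. The cKO call (limma adjusted p = 0.0411) was lost when any 1 library other than cKO TAC replicate 1 was left out. Those that fell in floxed hearts were Mfap3l (-1.20), and, named after their values were seen, Efemp1 (-0.89) and Hmcn1 (-0.75). Efemp1 encodes fibulin-3, the near relative of fibulin-4, and Hmcn1 hemicentin-1, a very large fibulin family member.

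Of the latent TGF-beta binding proteins and TGF-beta ligands, 4 of 6 rose and 1 fell in floxed hearts. Tgfb2 rose by 2.75, Tgfb3 by 1.81 and Tgfb1 by 1.22 there, and none of the 6 passed in cKO hearts. Ltbp1, which ties latent TGF-beta to microfibrils, fell by 0.64 on the log2 scale in floxed hearts, the opposite direction to Ltbp2 (Ltbp1 was named after its values were seen). Of the ADAMTS and ADAMTS-like proteins, which build or cut microfibrils, 3 of 9 rose and 1 fell in floxed hearts. Of all tested genes 27.9% rose and 14.5% fell there. Adamtsl2, known for binding both fibrillin-1 and LTBP1, was at 11.9 and 12.9 CPM in floxed sham, 34.1 and 39.9 in floxed TAC, 15.6 and 11.8 in cKO sham, and 40.4 and 35.8 in cKO TAC libraries. It rose by 1.50 ± 0.17 in floxed and 1.42 ± 0.17 in cKO hearts (limma adjusted p = 0.000151 and 0.0047), with an interaction of -0.08 ± 0.24 (0.855). The TAC libraries of the genotypes overlapped for this gene, unlike those of 9 of the 10 elastic fibre genes. The cKO call was lost without the 3 libraries with atrial transcripts (limma adjusted p = 0.0667). Adamtsl5 rose by 1.09 in floxed and 0.67 in cKO hearts. Its cKO call (limma adjusted p = 0.0139) was lost without cKO sham replicate 1 (0.0665), cKO sham replicate 2 (0.0598), cKO TAC replicate 2 (0.0529) or the libraries with atrial transcripts (0.188). Adamts10, whose product binds fibrillin-1, rose by 1.63 in floxed hearts, and its difference in cKO hearts was 0.45 (limma adjusted p = 0.287).

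Of the proteases that can cleave elastin or microfibrils, 5 of 7 tested rose in floxed hearts and 1 in cKO hearts, with none lower. Mmp12, the macrophage elastase, was at 0.130 and 0.120 CPM in floxed sham and 21.6 and 9.76 in floxed TAC libraries, and at 0.276 and 1.09 in cKO TAC libraries, so its sham values were at the level of 3 reads or less. Mmp14, a collagen-cutting protease of the cell surface, rose by 3.07 in floxed hearts, and its difference in cKO hearts was 0.56 (limma adjusted p = 0.465). Ctss, the elastin-cutting cathepsin S of macrophages, rose by 3.56 in floxed and 1.48 in cKO hearts. Its call in cKO hearts (limma adjusted p = 0.0449) was lost when any 1 library other than cKO TAC replicate 1 was left out, and the difference was 0.74 without the libraries with atrial transcripts. Among receptors 5 of 8 rose and 1 fell in floxed hearts and none passed in cKO hearts. Itgb3, which pairs with the integrin alpha V chain to bind fibrillin and fibulin-5, rose by 2.40, and Itga5 and Itgb5 rose by 1.95 and 1.07.

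**Figure D4:**
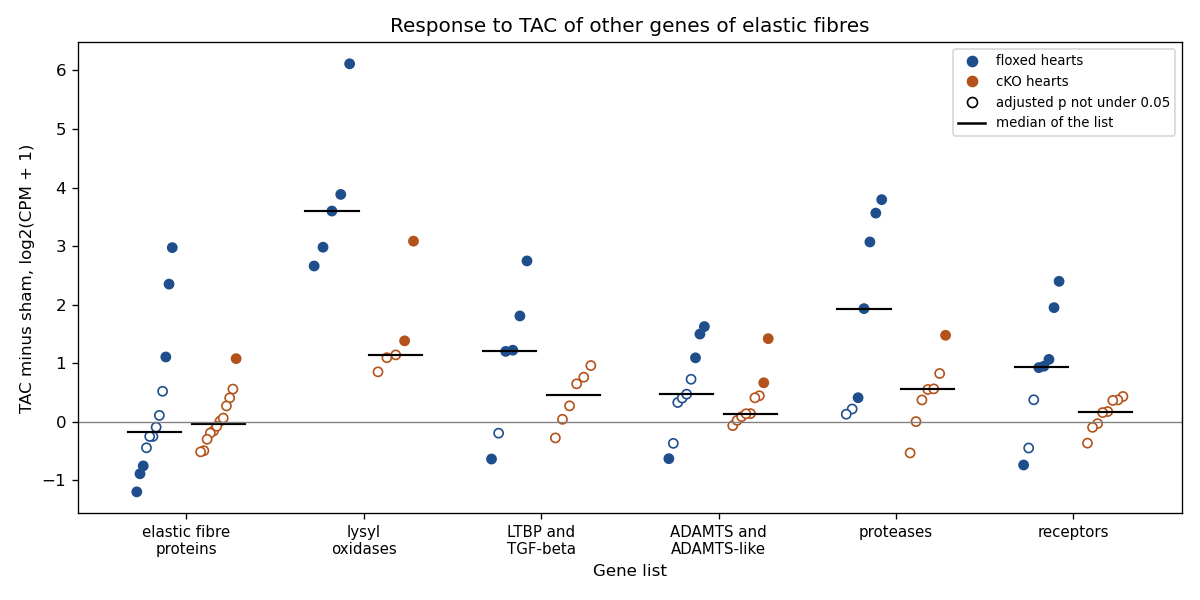
Difference between TAC and sham libraries on the log2(CPM + 1) scale for the 47 tested genes of 6 further lists, in floxed (blue) and cKO hearts (orange); filled points passed limma's adjusted p of 0.05 and black lines are list medians. The 5 lysyl oxidases have the highest median (3.60 in floxed hearts), and the genes listed as further elastic fibre proteins lie on both sides of 0.

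Among the cells that make these proteins, markers of activated fibroblasts rose with them after TAC, while general fibroblast and smooth muscle markers moved in both directions. The summed CPM of 6 markers of activated fibroblasts (Postn, Cthrc1, Fap, Comp, Cilp and Meox1) was 75.8 to 85.4 in floxed sham, 1992 to 2276 in floxed TAC, 83.9 to 97.9 in cKO sham and 520 to 956 in cKO TAC libraries. All 6 rose in floxed and 4 in cKO hearts. The sum of 9 general fibroblast markers moved less, from 2999 to 3106 in floxed sham to 4284 to 5487 in floxed TAC, and from 2959 to 3391 in cKO sham to 3102 to 3569 in cKO TAC libraries, and 5 of them rose and 2 fell in floxed hearts. Gsn and Scara5 were those that fell, and Dcn and Dpt did not pass. The rise of the sum in floxed hearts was that of Col1a2, at 190 and 217 CPM in sham and 2732 and 3247 in TAC libraries. Gsn was at 1935 and 1821 CPM in floxed sham and 485 and 765 in floxed TAC libraries, so the sum does not describe the markers one by one. The part of fibroblasts in the results on the elastic fibre genes was not tested.

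Macrophage markers (7 tested of 8) summed to 331 to 339 CPM in floxed sham, 1791 to 2056 in floxed TAC, 278 to 363 in cKO sham and 616 to 852 in cKO TAC libraries, and all 7 rose in both genotypes. Smooth muscle and pericyte markers summed to 847 to 875 CPM in floxed sham, 1168 to 1174 in floxed TAC, 785 to 918 in cKO sham and 790 to 1149 in cKO TAC libraries, with 4 of 9 risen and 2 fallen in floxed hearts. None of 7 endothelial markers passed in either TAC comparison. The sum of 7 cardiomyocyte markers was lower in floxed TAC (28327 to 28339 CPM) than in floxed sham libraries (53714 to 65570), and 4 of the 7 fell. The fall of the sum was largely that of Myh6 (mean 26292 to 9548 CPM) and Myl2 (12083 to 3157). Tnnt2 and Actn2 did not pass (limma adjusted p = 0.77 and 0.35). In cKO hearts the sum was 42353 to 48289 CPM in sham and 40166 to 56855 in TAC libraries, and none of the 7 passed. In TAC hearts 5 of the 7 were higher in cKO than in floxed libraries, and 4 had a positive interaction, the opposite sign to the elastic fibre genes that passed. Other markers had the same sign as those genes. Of the macrophage markers 7 were lower in cKO TAC than in floxed TAC libraries and 6 had a negative interaction. For activated fibroblast markers these counts were 4 and 4, and for smooth muscle and pericyte markers 3 and 2, with none the other way. General fibroblast markers were mixed, with 2 higher and 2 lower in cKO TAC libraries. Mesothelial markers were low throughout, with sums of 5.64 to 22.2 CPM, and 4 of 5 tested rose in floxed hearts. Of 5 adipocyte markers only Cfd had values, between 0 and 2.07 CPM. The part of these cell types in the results was not tested.

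Genes whose profile over the 8 libraries was nearest to that of Eln or Ltbp2 were ranked among 10294 genes with a mean of at least 5 CPM, by the root mean square difference of log2(CPM + 1) after each profile was centred on its own mean. For Eln these were Aspn (0.296), Cdkn1a (0.318), Rhou (0.321), Ankrd23 (0.322) and Arhgap11a (0.331). Cdkn1a, an inhibitor of the cell cycle, shared the raised value of Eln in cKO sham replicate 1, at 49.1 against 10.6 CPM in replicate 2, and Ankrd23, a stretch-responsive gene of muscle, was at 372 against 206. The nearest of the other 9 members to Eln was Mfap4, at rank 87, and Fbn1 was at rank 296. For Ltbp2 the nearest were Col12a1 (0.418), Postn (0.462), Cthrc1 (0.467), Timp1 (0.484) and Lox (0.514). Of these, Postn and Cthrc1 are among the activated fibroblast markers above, and Lox is the lysyl oxidase described above. The nearest of the other 9 to Ltbp2 was Mfap5, at rank 55. This is a description over 8 libraries that share the large TAC contrast.

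Some of the genes overlap others on the opposite strand, which matters if reads were counted without strand; the library kit is stranded, but the counting settings are not given. Gm9913 covers 20.1% of the exonic bases of Fbn1, D030025P21Rik 9.34% of those of Ltbp2, Mapk7 4.63% of those of Mfap4, Mus81 4.57% of those of Efemp2 and Gm30003 3.30% of those of Eln (GENCODE M21, GRCm38). Of these, Mapk7 and Mus81 have values in the table. No overlapping gene was found for the other 5 members.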

How the data were processed

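The authors deposited CPM values, a gene's reads over all assigned reads of its library, times a constant, for 13439 genes in 8 libraries of left ventricular RNA. Per the submitters' processing notes HTSeq, DESeq2, Bowtie2 2.2.6 and the mm10 build were used; the sources used here give no order, annotation or use of strand. The values gave back whole reads, within 0.02 reads, for 100% of genes in each library. Because the values are CPM, limma 3.58.1 (R 4.3.3) with a variance trend was fitted to log2(CPM + 1), with 1 coefficient per group and all 8 libraries. A gene was tested if 2 or more libraries had 1 CPM or more (13120 kept, 319 removed), with Benjamini-Hochberg adjustment over all of them at 0.05. With 2 libraries against 2, an exact permutation test cannot go below 0.333, so none was used. The script was tested on simulated data.

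Alternatives were a pseudocount of 0.5, no filter, RLE scaling, edgeR 4.0.16 and DESeq2 1.42.0 on recovered reads, the 4 libraries of a comparison alone, a replicate block, leaving out each library, and leaving out the 3 libraries with atrial transcripts. On recovered reads edgeR called 5559 genes in floxed TAC, 346 in cKO TAC, 6 and 3070 between genotypes in sham and TAC hearts, and 1601 in the interaction. The members, gene lists and tests were chosen with earlier results of these data known. All 10 members are named. In each further list the up to 3 genes with the largest called change in floxed hearts are named, with the one of largest interaction, and for Eln and Ltbp2 the 5 nearest profiles.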

Additional observations from a re-analysis of the deposited data

Results flagged for a closer look

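The TAC response differed between genotypes by the interaction test for 7 of the 10 elastic fibre genes, and the values are cKO minus floxed on the log2(CPM + 1) scale. They were -1.92 for Fbn1, -1.87 for Efemp2, -1.78 for Mfap5, -1.77 for Emilin1, -1.14 for Mfap4, -1.10 for Fbln2 and -1.05 for Fbln5. Among the named genes of the further lists it differed for Mmp12 (-3.24), Lox (-3.03), Loxl3 (-2.74), Mmp14 (-2.51), Fbn2 (-2.42), Loxl2 (-2.22), Ctss (-2.09), Itgb3 (-1.97), Tgfb2 (-1.79), Itga5 (-1.58), Mfap2 (-1.27), Adamts10 (-1.18), Tgfb3 (-1.05), Tgfb1 (-0.95) and Itgb5 (-0.91). Mfap3l, which fell in floxed hearts, had a positive value (1.00). Of these, Efemp2, Mfap5, Fbn2, Loxl2, Loxl3 and Itga5 passed under each alternative setting. The others missed the threshold under 1 (Mmp12) to 9 (Tgfb1 and Mfap2) of the 15 settings, with 8 for Tgfb3 and 6 for Fbn1 and Mfap4.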

How the results depend on the processing

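Signs of the 10 genes held in each setting except for values near 0. Fbln5 in cKO hearts was -0.14 without cKO TAC replicate 2 (0.32 without replicate 1) and -0.18 without the 3 libraries with atrial transcripts. In sham hearts the genotype difference was -0.016 for Fbn1 without cKO sham replicate 1 (0.70 without replicate 2) and -0.075 for Mfap5 without floxed sham replicate 1 (0.36 without replicate 2). The interaction of Fbln1 was -0.17 without floxed TAC replicate 1 (0.35 without replicate 2), -0.0011 without cKO sham replicate 1, -0.074 without cKO TAC replicate 2 and -0.053 without the libraries with atrial transcripts. Members that passed in cKO hearts numbered 4, with 8 by DESeq2 and 3 to 7 when 1 library was left out. For the interaction they numbered 7, with 2 to 8 when 1 library was left out; the causes were not tested. With RLE scaling the median of all genes in floxed hearts went from 0.14 to 0.00, and the share of higher calls from 65.7% to 53.4%. That share went from 33.7% to 44.8% between genotypes in TAC hearts and from 35.0% to 47.9% in the interaction, and no member changed sign or call. Over all genes, calls in cKO hearts numbered 332, with 45 from the 4 libraries alone, 62 without the libraries with atrial transcripts, 688 by DESeq2 and 73 to 614 when 1 library was left out. When 1 library was left out they ranged from 3618 to 5921 in floxed hearts (5562), 1330 to 3624 between genotypes in TAC hearts (3263), 1 to 16 in sham hearts (7, and 49 by DESeq2) and 253 to 2918 in the interaction (1851). Replicate numbers did not pair the libraries, with correlations of deviations from -0.11 to 0.08. With the replicate block 10, 6, 0, 8 and 7 members passed, in the order of floxed TAC, cKO TAC, genotype in sham, genotype in TAC and interaction, against 10, 4, 0, 8 and 7 without it. The lowest depth behind a member's value was 28 and 36 reads, for Ltbp2 in cKO sham libraries.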
